A study of Mus musculus with 4 samples.

Results

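The oxidative phosphorylation genes were taken as every row of the expression table whose symbol begins with Nduf followed by a, b, c, s or v and a digit, with Uqcr, with Cox4 to Cox8, or with Atp5 and a letter, or is Sdha, Sdhb, Sdhc or Sdhd. The rule found 84 genes among 24497 gene rows: 35 of complex I, 4 of complex II, 8 of complex III, 20 of complex IV, 15 of complex V, and 2 (Atp5s and Atp5sl) that are not subunits of a complex. Ndufa4, Ndufa4l2 and Cox7a2l were counted under complex IV. RNA sequencing was done on cultured mouse acute myeloid leukaemia cells that carry NRAS and AE9a, a short form of the AML1-ETO fusion protein. They had been derived from bone marrow haematopoietic stem cells of Tet2-/- mice, which lack exon 3 of Tet2 and are called Tet2 KO here, or of wild-type (WT) mice. The medium of both groups held 50 ng/ml of stem cell factor, 10 ng/ml each of IL-6 and IL-3, 2 µg/ml of puromycin and 1 mg/ml of G418. There were 2 libraries per group, and the labels do not say whether these came from separate cultures or animals. All p-values therefore reflect the spread between these libraries alone, and that spread may be technical.

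Oxidative phosphorylation takes electrons from NADH at complex I and from succinate at complex II, passes them through ubiquinone to complex III and through cytochrome c to complex IV, where oxygen is reduced. Proton pumping by complexes I, III and IV drives ATP synthase, complex V. Nuclear genes encode most subunits, each complex except II also needs subunits made in the mitochondrion from its own DNA, and dedicated assembly factors join the parts. The mitochondrially encoded subunits were not analysed here.

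The deposited values are TPM, shares of a fixed total corrected for transcript length. Sequencing depth cannot be read from them and is unknown. Each library had 14753 to 15139 genes above 0 TPM, and 11452 genes with at least 1 TPM in at least 2 libraries were tested. Tet2 itself was at 16.98 and 16.95 TPM in the Tet2 KO libraries, against 16.62 and 16.98 TPM in the WT libraries (log2 fold change 0.01, SE 0.0685, adjusted p = 0.868 by limma). The fold change depended on the scaling, at -0.22 with median-ratio scaling and -0.52 with a further correction for length and GC content. Tet2 was called lower under both, and also with spike-in scaling and with quantile normalization. These are values for the whole gene that do not show exon 3, so they do not check the labels. The 12 listed markers of myeloid cells were all above 10 TPM in every library, and the 10 listed markers of lymphoid, erythroid and other cells were at 0.36 TPM or less. All 12 myeloid markers passed the test, 6 lower and 6 higher in Tet2 KO, against 19.5% lower and 54.4% higher among all genes. Elane and Ms4a3 were among the lower, and Mpo and Csf3r among the higher. Kit, a stem and progenitor cell receptor, was at 201.19 and 209.41 TPM in Tet2 KO and 11.63 and 11.99 TPM in WT, while Lyz2, the lysozyme of mature myeloid cells, was at 7574.7 and 7652.26 TPM in Tet2 KO and 19230.84 and 19238.91 TPM in WT. The part of these marker differences in the results below was not tested.

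The subunit genes were, for the most part, lower in Tet2 KO than in WT cells. Of the 84 genes, 80 passed the filter, and 56 of these fell, 8 rose and 16 did not pass the test (limma on log2(TPM + 1), Benjamini-Hochberg adjusted over all genes tested, two-sided, threshold 0.05). Among all genes tested, 19.5% were called lower and 54.4% higher. Their median log2 fold change was 0.23, against -0.27 for the 80 subunit genes. The background therefore leaned in the opposite direction. A general shift of this kind depends on how libraries are scaled. With median-ratio scaling, which brings the median of all genes to 0.00, 71 of the 80 fell and 3 rose, against 34.4% lower and 33.3% higher among all genes, and their median was -0.52. With spike-in scaling 72 fell and 3 rose, against 37.8% lower and 29.6% higher among all genes. With the deposited values both Tet2 KO libraries lay below both WT libraries for 64 of the 80 genes and above both for 11, against 24.4% and 62.4% of all genes. The groups thus lay apart for most genes tested, so a lack of overlap stated below does not by itself set a gene apart. Bulk RNA cannot separate fewer cells of a type from less RNA per cell.

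In sum, the 84 genes made up 1.59 and 1.58% of all gene TPM in the Tet2 KO libraries, against 2.01 and 1.98% in the WT libraries. The summed level was 14980 ± 13.2 TPM in Tet2 KO and 19085 ± 197 TPM in WT (SD, n = 2 each), so it fell by 21.5%. The ERCC spike-ins took 5.48 and 5.33% of the Tet2 KO libraries and 4.38 and 4.43% of the WT libraries, and are not counted in these shares of gene TPM. An exact two-sided permutation test of 2 libraries against 2 cannot go below p = 0.333, so no such test is given for sums and shares.

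**Figure D1:**
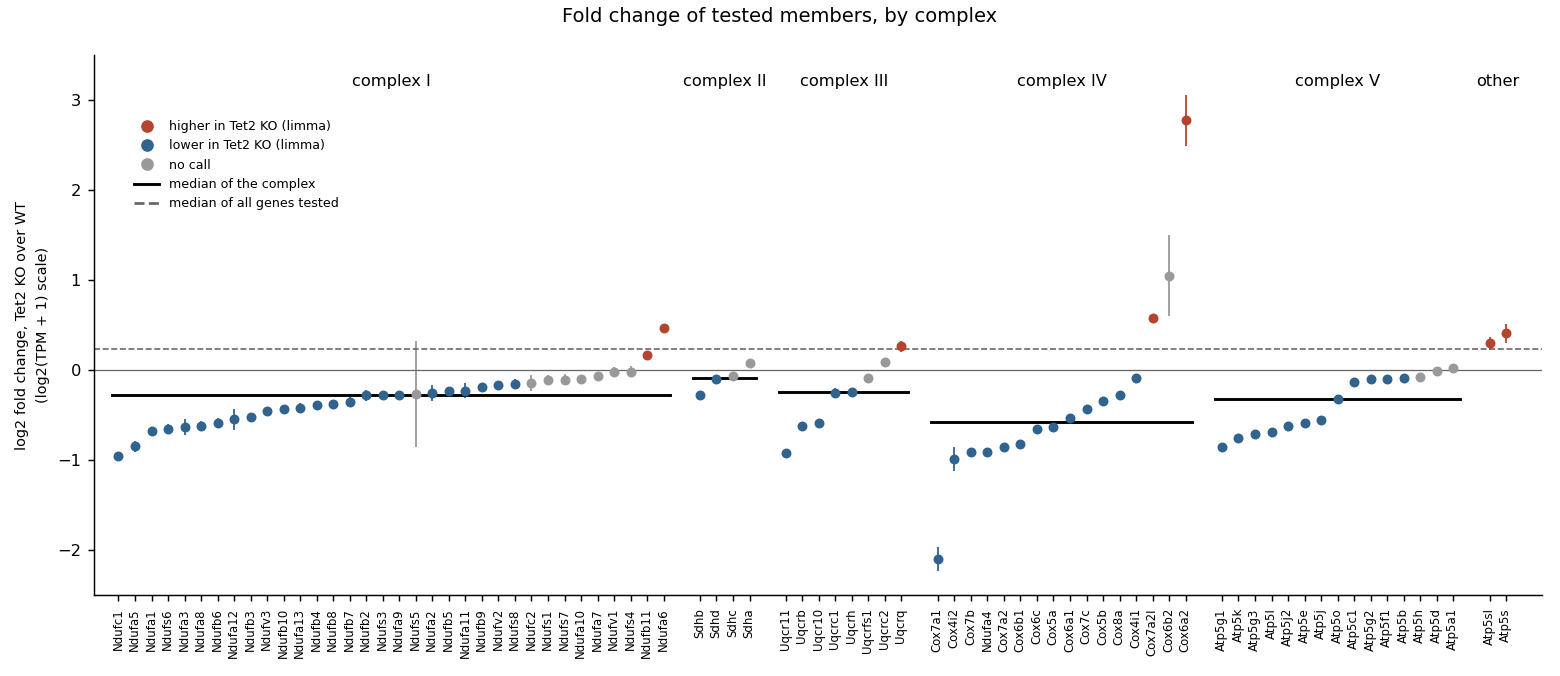
Log2 fold change of the tested oxidative phosphorylation genes, Tet2 KO over WT, by complex (1 complex I gene is not drawn), on the log2(TPM + 1) scale, with 1 standard error as a bar, the median of each complex as a black line and the median of all genes tested as a dashed line at 0.23. Most genes lie below 0, with medians from -0.58 in complex IV to -0.08 in complex II. Above the dashed line lie Ndufa6, Uqcrq, Cox7a2l, the low-level genes Cox6a2 and Cox6b2, and Atp5s and Atp5sl, which are not subunits.

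The complexes differed in how far their genes moved. Complex IV had the lowest median log2 fold change, -0.58, with 13 of 16 tested genes lower and 2 higher. Complex V followed at -0.32, with 12 of 15 lower and 0 higher. Complex I stood at -0.28, with 24 of 35 lower and 3 higher, and complex III at -0.25, with 5 of 8 lower and 1 higher. Complex II stood at -0.08, with 2 of 4 lower and 0 higher. Among all genes tested, 19.5% were called lower and 54.4% higher. With median-ratio scaling the medians were -0.83 for complex IV, -0.57 for V, -0.52 for I, -0.49 for III and -0.33 for II, and the counts were 13 lower and 2 higher for IV, 15 and 0 for V, 32 and 1 for I, 7 and 0 for III, and 4 and 0 for II. With that scaling 34.4% of all genes were called lower and 33.3% higher. Genes of 1 complex are not replicates, and the differences between the medians were not tested.

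The summed TPM gave a similar picture. Complex IV genes summed to 4192 and 4197 TPM in Tet2 KO and 5652 and 5616 TPM in WT, so that the mean sum fell by 25.5%. It fell by 23.8% for complex III, fell by 21.2% for complex V and fell by 18.3% for complex I. Complex II genes summed to 599.96 and 606.65 TPM in Tet2 KO and 644.94 and 641.87 TPM in WT, where the mean fell by 6.23%. As a share of the summed subunit TPM, complex II was at 4.0 and 4.05% in Tet2 KO and 3.35 and 3.39% in WT, complex III at 10.0 and 9.90% in Tet2 KO and 10.2 and 10.3% in WT, complex IV at 28.0 and 28.0% in Tet2 KO and 29.4 and 29.6% in WT, and complex I at 24.4 and 24.1% in Tet2 KO and 23.3 and 23.3% in WT. For these 4 complexes the libraries of the groups did not overlap. Complex V overlapped, at 33.5 and 33.7% in Tet2 KO and 33.6 and 33.3% in WT.

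Complex I, NADH dehydrogenase, has 7 nuclear core subunits that carry the flavin and iron-sulfur centres and many accessory subunits around them. Ndufc1, a small accessory subunit of the membrane arm (chromosome 3, 51404677 to 51408988, mm10), was at 75.82 and 80.24 TPM in Tet2 KO and 151.28 and 153.43 TPM in WT (log2 fold change -0.96, SE 0.0483, adjusted p = 3.77e-11). Ndufa5, an accessory subunit of the matrix arm, was at 23.75 and 22.64 TPM in Tet2 KO and 41.79 and 43.18 TPM in WT (-0.85, SE 0.06, adjusted p = 2.52e-09). Ndufa1, which sits in the membrane arm, was at 93.99 and 89.65 TPM in Tet2 KO and 146.21 and 147.76 TPM in WT (-0.67, SE 0.047, adjusted p = 2.1e-09). These 3 had the largest falls in the complex, and for each the lower WT library was well above the higher Tet2 KO library. Ndufa3, the complex I gene with the highest mean level, was at 185.28 and 166.53 TPM in Tet2 KO and 293.8 and 253.81 TPM in WT (-0.63, SE 0.0867, adjusted p = 0.00108). Its replicates spread more widely, in both groups, without overlap between groups.

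The core subunits of complex I moved less than the accessory ones. Of the 7 core genes 3 fell and 1 rose, and their median log2 fold change was -0.11, while of the 28 accessory genes 21 fell and 2 rose, with a median of -0.36. Among all genes tested, 19.5% were called lower and 54.4% higher. With median-ratio scaling the medians were -0.35 and -0.61, and 7 of 7 core genes and 25 of 28 accessory genes fell, against 34.4% of all genes. The median transcript length was 1312 bases for the core and 674.5 bases for the accessory genes. After a further correction for length and GC content the medians were -0.15 and -0.39. The part of length in this difference was not tested. These subgroups, like those of complexes III and V, were chosen after the values had been seen. Ndufv1, which carries the flavin that accepts electrons from NADH, was at 73.83 and 74.61 TPM in Tet2 KO and 75.44 and 75.13 TPM in WT (adjusted p = 0.725). Ndufs1, the largest iron-sulfur subunit, was at 63.95 and 64.22 TPM in Tet2 KO and 68.15 and 70.3 TPM in WT (adjusted p = 0.0662). The groups did not overlap for either gene, yet neither passed the test on the deposited scale. Ndufs3, by contrast, fell: it was at 79.24 and 84.12 TPM in Tet2 KO and 98.92 and 99.6 TPM in WT (-0.28, SE 0.0502, adjusted p = 0.000106).

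Against the general direction, Ndufa6 rose. This accessory subunit, which binds the acyl carrier protein Ndufab1 (chromosome 15, 82350140 to 82354322, mm10), was at 256.97 and 244.15 TPM in Tet2 KO and 174.35 and 187.89 TPM in WT (log2 fold change 0.47, SE 0.0466, adjusted p = 1.8e-07). With median-ratio scaling it was still called higher (0.22, adjusted p = 0.00339). It stood at 2.73 and 2.63 times the median complex I gene in Tet2 KO and at 1.36 and 1.48 times in WT. Ndufb11, a membrane arm subunit, was at 137.2 and 135.15 TPM in Tet2 KO and 120.82 and 121.74 TPM in WT (0.17, SE 0.0447, adjusted p = 0.00329), but at -0.08 with median-ratio scaling, where it was not called. The direction of Ndufb11 thus depended on the scaling.

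Ndufs5, an accessory subunit, was at 23.71 and 54.67 TPM in Tet2 KO and 48.16 and 39.45 TPM in WT, and did not pass the test (log2 fold change -0.27, SE 0.583, adjusted p = 0.725). Its Tet2 KO libraries lay on both sides of the WT libraries. BC002163, a separate row of the table whose coding sequence is 99.4% identical to that of Ndufs5, was at 119.14 and 81.44 TPM in Tet2 KO and 164.89 and 168.84 TPM in WT. In Tet2 KO the library with less Ndufs5 had more BC002163. The sum of both genes was 142.85 and 136.11 TPM in Tet2 KO and 213.05 and 208.29 TPM in WT, close within each group and without overlap. Without Tet2 KO replicate 2, Ndufs5 was called lower, and without Tet2 KO replicate 1 the log2 fold change of Ndufs5 was 0.32 (adjusted p = 0.0545). The value for Ndufs5 alone is therefore uncertain.

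**Figure D2:**
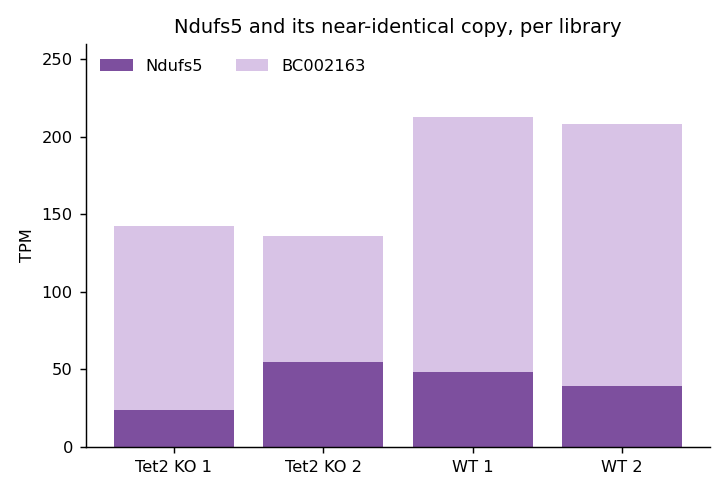
Stacked bars of the TPM of Ndufs5 (dark) and of its near-identical copy BC002163 (light) in each library, Tet2 KO left of WT. The dark part differs between the Tet2 KO libraries, at 23.71 and 54.67 TPM, while the whole bars lie close, at 142.85 and 136.11 TPM, below the WT bars at 213.05 and 208.29 TPM.

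Near-identical copies concern other members too. By BLAST of the mouse coding sequences, 20 of the 84 genes had a copy of at least 95% identity over at least 80% of their length, and quantification may divide reads between such copies. Among genes named here these are Ndufs3, Ndufs5, Ndufb11, Uqcr11, Uqcrb, Uqcr10, Cox5b, Cox6c, Cox7b, Atp5f1, Atp5g1, Atp5g2, Atp5h, Atp5k, Atp5l and Atp5o, and their values are uncertain to that extent. Only the copies of Ndufs5 and Uqcr10 were found by name as rows with values. The copy of Uqcr10, 4930481A15Rik, was at 0.63 to 1.36 TPM. For the other genes a division of reads cannot be seen in the deposited values. In GENCODE M21, 28 of the 80 tested genes share exon sequence with another gene, mostly on the other strand, and the strand setting of the quantification is unknown, so reads of such pairs may not have been told apart. They include Ndufa3, Ndufs1, Ndufs3, Ndufb11, Uqcrb, Uqcrc2, Cox4i1, Cox5a, Cox6c, Cox6a2, Atp5a1, Atp5f1, Atp5g2, Atp5j (with Gabpa), Atp5l and Atp5o. Of the 60 tested genes without a copy, 39 fell and 7 rose, and the median log2 fold change was -0.24. Of the 41 that also shared no exon with another gene, 26 fell and 5 rose, with a median of -0.24. Among all genes tested, 19.5% were called lower and 54.4% higher. With median-ratio scaling the median of these 41 was -0.49.

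Complex II, succinate dehydrogenase, belongs both to the respiratory chain and to the TCA cycle, and its 4 genes moved least. Sdhb, the iron-sulfur subunit, was at 132.79 and 138.57 TPM in Tet2 KO and 161.74 and 166.54 TPM in WT (log2 fold change -0.27, SE 0.0452, adjusted p = 4.55e-05), and was called lower under every alternative. Sdhd, a membrane anchor, was at 174.59 and 170.39 TPM in Tet2 KO and 188.9 and 181.21 TPM in WT (-0.10, SE 0.0436, adjusted p = 0.0472), a call that was lost in 8 of 16 alternatives. Sdhc, the other anchor, was at 137.65 and 144.17 TPM in Tet2 KO and 149.53 and 145.96 TPM in WT (-0.07, adjusted p = 0.186). Sdha, the flavoprotein that oxidises succinate, was at 154.93 and 153.52 TPM in Tet2 KO and 144.77 and 148.16 TPM in WT (0.07, adjusted p = 0.136). Sdha was thus the only Sdh gene with both Tet2 KO libraries above both WT libraries. With median-ratio scaling all 4 were called lower, Sdha at -0.17, where 34.4% of all genes were called lower. The median transcript length was 1612 bases in complex II and 625.5 bases in complex IV. After the length and GC correction all 4 Sdh genes were again called lower, against 35.3% of all genes. Their median was then -0.21, close to -0.27 for complex III and -0.29 for complex V.

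In complex III, ubiquinol-cytochrome c reductase, the small subunits had a lower median than the large ones that the rule matches. This did not hold gene by gene, as Uqcrq rose on the deposited scale and Uqcrh fell no further than the large Uqcrc1. Uqcr11, the smallest subunit (chromosome 10, 80402997 to 80406830, mm10), was at 138.09 and 132.58 TPM in Tet2 KO and 261.73 and 252.86 TPM in WT (log2 fold change -0.92, SE 0.0437, adjusted p = 1.68e-11). Uqcrb, which lies near the ubiquinone site, was at 242.0 and 236.7 TPM in Tet2 KO and 357.31 and 378.31 TPM in WT (-0.62, adjusted p = 1.19e-09). Uqcr10, another small subunit, was at 264.47 and 271.26 TPM in Tet2 KO and 412.44 and 393.86 TPM in WT (-0.59, adjusted p = 1.44e-09). Each of the 3 was far lower in both Tet2 KO libraries. Uqcrh, the hinge protein that holds cytochrome c to cytochrome c1 and the gene with the highest level in the complex, was at 376.61 and 354.69 TPM in Tet2 KO and 430.29 and 433.49 TPM in WT (-0.24, adjusted p = 4.3e-05). Uqcrq, also a small subunit, was at 61.79 and 64.79 TPM in Tet2 KO and 55.07 and 50.18 TPM in WT (0.26, SE 0.0587, adjusted p = 0.00075), but at 0.02 with median-ratio scaling, where it was not called.

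The large complex III genes compared here are the 3 that the rule matches. Cyc1, which the rule does not match, is given below and fell further than each of them. Of these 3, the core protein gene Uqcrc1 fell, at 116.23 and 123.35 TPM in Tet2 KO and 146.41 and 139.33 TPM in WT (-0.25, SE 0.0485, adjusted p = 0.000197). Its partner Uqcrc2 was at 139.16 and 141.78 TPM in Tet2 KO and 132.97 and 129.96 TPM in WT (0.09, adjusted p = 0.0655). Uqcrfs1, the Rieske iron-sulfur protein that takes electrons from ubiquinol, was at 160.42 and 157.37 TPM in Tet2 KO and 170.33 and 168.41 TPM in WT (-0.09, adjusted p = 0.0642). The median was -0.09 for these 3 and -0.59 for the 5 small subunits. With median-ratio scaling these medians were -0.34 and -0.83, and Uqcrc2 was called lower (-0.15). The median transcript length was 1653 bases for the 3 large and 474.5 bases for the 5 small subunits. After the length and GC correction their medians were -0.20 and -0.48. The part of length in this difference was not tested.

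**Figure D3:**
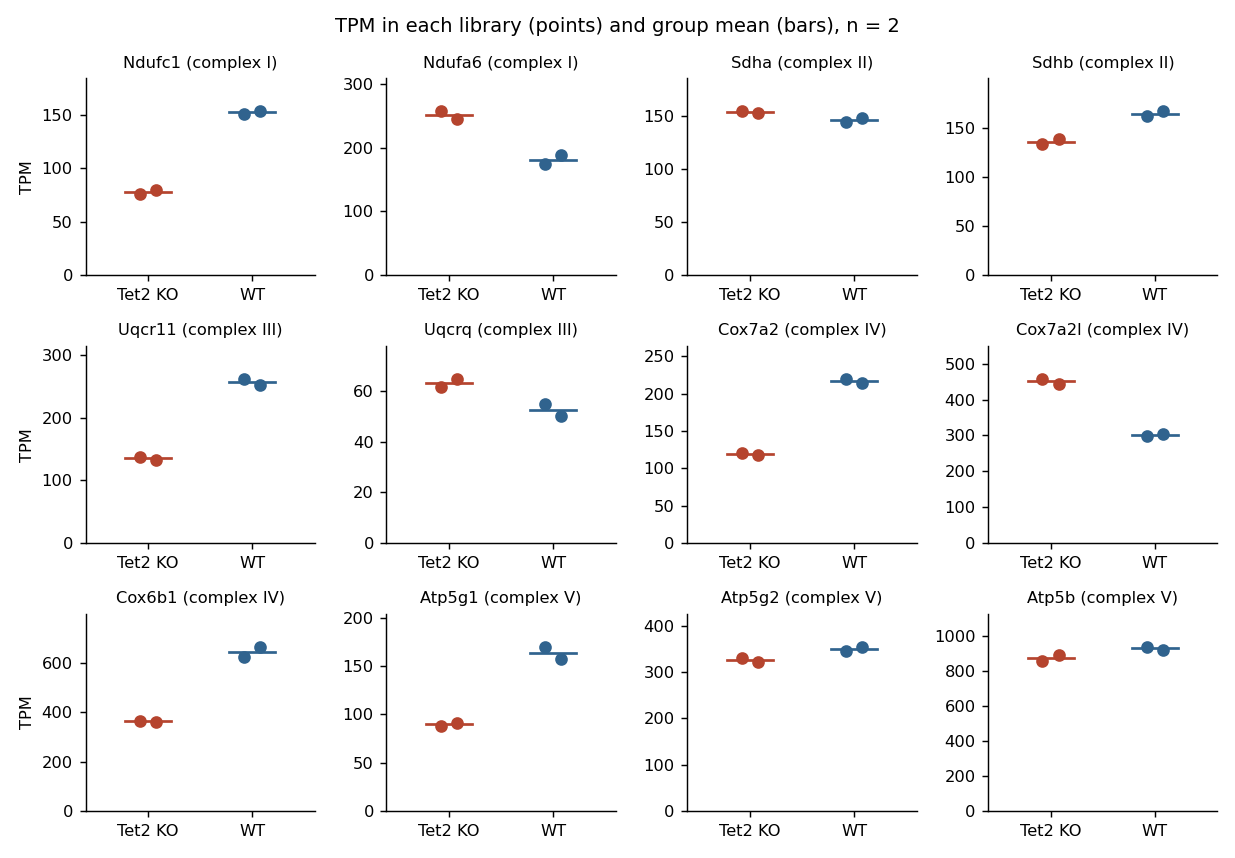
TPM in each library (points) and the group mean (line, n = 2) for 12 genes of complexes I to V, Tet2 KO left of WT, each panel with its own axis from 0. Ndufc1, Uqcr11, Cox7a2, Cox6b1 and Atp5g1 are lower in both Tet2 KO libraries, Ndufa6 and Cox7a2l are higher in both, and Sdha, Atp5g2 and Atp5b differ little.

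Complex IV, cytochrome c oxidase, transfers electrons to oxygen, and its nuclear subunits surround a catalytic core made in the mitochondrion. Cox7b was at 138.02 and 132.88 TPM in Tet2 KO and 254.28 and 257.75 TPM in WT (log2 fold change -0.91, SE 0.0427, adjusted p = 1.46e-11). Ndufa4, first described with complex I and later found in complex IV (chromosome 6, 11900292 to 11907497, mm10), was at 254.97 and 240.67 TPM in Tet2 KO and 478.43 and 454.58 TPM in WT (-0.91, SE 0.0421, adjusted p = 1.3e-11). Cox6b1, on the side of the complex that faces cytochrome c, was at 365.44 and 362.37 TPM in Tet2 KO and 624.97 and 665.41 TPM in WT (-0.82, SE 0.039, adjusted p = 1.66e-11). The mean fell by 47.1% for Cox7b, fell by 46.9% for Ndufa4 and fell by 43.6% for Cox6b1, with no overlap between the groups. Cox4i1, the gene with the highest level in the complex, was at 733.16 and 729.94 TPM in Tet2 KO and 792.1 and 764.8 TPM in WT (-0.09, SE 0.0345, adjusted p = 0.0284). That small fall changed its call in 9 of 16 alternatives and stood at 0.17 with quantile normalization, where it was called higher.

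Cox6c, Cox5a, Cox6a1, Cox7c, Cox5b and Cox8a also fell, by log2 fold changes of -0.65, -0.63, -0.53, -0.44, -0.34 and -0.27. Cox6a1, the form of subunit 6a found in most tissues, was at 403.59 and 429.57 TPM in Tet2 KO and 607.03 and 595.27 TPM in WT. Cox8a, the general form of subunit 8, was at 421.39 and 448.32 TPM in Tet2 KO and 526.63 and 524.48 TPM in WT. All 6 kept their call under each of the 16 alternatives.

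The family of Cox7a genes moved in both directions. Cox7a2, the general form of subunit 7a (chromosome 9, 79755361 to 79759878, mm10), was at 120.11 and 118.46 TPM in Tet2 KO and 219.51 and 213.84 TPM in WT (-0.86, SE 0.0433, adjusted p = 3.94e-11). Cox7a2l, a related protein known to join complexes III and IV into supercomplexes (chromosome 17, 83501918 to 83517330, mm10), was at 457.19 and 444.26 TPM in Tet2 KO and 297.99 and 304.73 TPM in WT (0.58, SE 0.038, adjusted p = 9.67e-10). Cox7a1, the heart and muscle form, was at 1.28 and 1.91 TPM in Tet2 KO and 9.06 and 11.12 TPM in WT (-2.10, SE 0.133, adjusted p = 1.99e-08). Each of the 3 separated the groups, and each kept its direction and call under all alternatives, with Cox7a2l at 0.33 after median-ratio scaling. Cox7a2l stood at 3.81 and 3.75 times the TPM of Cox7a2 in Tet2 KO and at 1.36 and 1.43 times in WT, a ratio within each library that scaling does not alter. Of the summed TPM of these genes, Cox7a2l held 79.0 and 78.7% in Tet2 KO and 56.6 and 57.5% in WT.

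Isoforms known from other tissues were at low levels. Cox6a2, the heart and muscle form of subunit 6a, was at 10.9 and 8.93 TPM in Tet2 KO and 0.24 and 1.05 TPM in WT (log2 fold change 2.77), and made up 2.63 and 2.04% of Cox6a TPM in Tet2 KO and 0.04 and 0.18% in WT. It passed the filter only through its level in Tet2 KO. Its call as higher therefore carries no weight, although the counts of genes that rose include it. In addition, 1 of its exons overlaps an exon of Itgad on the other strand. Cox4i2, the form known from lung and low oxygen, was at 1.99 and 1.41 TPM in Tet2 KO and 3.85 and 4.83 TPM in WT (-0.99, SE 0.133, adjusted p = 7.44e-06). Cox6b2, known from testis, was at 5.8 and 6.91 TPM in Tet2 KO and 3.94 and 1.56 TPM in WT (1.04, SE 0.449, adjusted p = 0.154). The groups did not overlap for any of these 3 genes, but the WT libraries spread widely for Cox6b2. Ndufa4l2, known as a target of low oxygen, was at 0.1 and 0.15 TPM in Tet2 KO and listed at 0 in WT. Cox7b2, Cox8b and Cox8c were listed at 0 in every library, and these 4 genes were not tested.

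Complex V, ATP synthase, has a catalytic head (F1), a ring of subunit c and a membrane part with stalks. Subunit c is encoded by Atp5g1, Atp5g2 and Atp5g3, whose mature proteins are identical. Atp5g1 (chromosome 11, 96068852 to 96075670, mm10) was at 88.34 and 91.09 TPM in Tet2 KO and 169.9 and 157.3 TPM in WT (-0.86, SE 0.0497, adjusted p = 2.1e-10). Atp5g3 was at 302.72 and 287.52 TPM in Tet2 KO and 489.9 and 473.56 TPM in WT (-0.71, SE 0.0399, adjusted p = 1.59e-10). Atp5g2 was at 330.92 and 322.62 TPM in Tet2 KO and 346.24 and 355.04 TPM in WT (-0.10, SE 0.0384, adjusted p = 0.0256), a call that changed in 8 of 16 alternatives. Atp5g2 held 45.8 and 46.0% of the subunit c TPM in Tet2 KO and 34.4 and 36.0% in WT, while Atp5g1 held 12.2 and 13.0% in Tet2 KO and 16.9 and 16.0% in WT. The order of the genes also differed: Atp5g2 was highest in both Tet2 KO libraries and Atp5g3 in both WT libraries.

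Of the 7 stalk and membrane genes, 6 fell, with a median log2 fold change of -0.55, where 19.5% of all genes were called lower. Atp5k, which encodes subunit e at the contact of the ATP synthase dimer, was at 333.02 and 307.19 TPM in Tet2 KO and 537.34 and 539.98 TPM in WT (-0.75, SE 0.0417, adjusted p = 1.56e-10). Its neighbour in the dimer, subunit g (Atp5l), was at 419.33 and 415.6 TPM in Tet2 KO and 704.77 and 644.49 TPM in WT (-0.69, adjusted p = 1.04e-09). Atp5j2 (-0.62), Atp5j (-0.55), Atp5o (-0.32) and Atp5f1 (-0.10) fell as well, the last with adjusted p = 0.0444 and a call that changed in 9 of 16 alternatives. Atp5h, a part of the outer stalk, was at 364.89 and 374.24 TPM in Tet2 KO and 397.45 and 380.27 TPM in WT and did not pass the test (adjusted p = 0.101).

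The catalytic head differed less. Of its 5 genes 3 fell, where 19.5% of all genes were called lower, and the median was -0.09. The median transcript length was 1166 bases for these genes and 684 bases for the stalk and membrane genes. After the length and GC correction the medians were -0.22 and -0.54. The part of length in this difference was not tested. Atp5b, the catalytic beta subunit and the highest of all 84 genes, was at 859.34 and 892.49 TPM in Tet2 KO and 939.16 and 923.93 TPM in WT (-0.09, SE 0.0341, adjusted p = 0.0275), with a changed call in 8 of 16 alternatives. Atp5a1, the alpha subunit, was at 582.74 and 622.34 TPM in Tet2 KO and 592.57 and 593.84 TPM in WT (0.02, SE 0.0383, adjusted p = 0.619), and its groups overlapped. Atp5e, the small epsilon subunit, fell much further, at 368.31 and 389.26 TPM in Tet2 KO and 575.64 and 561.86 TPM in WT (-0.59, adjusted p = 1.11e-09). With median-ratio scaling all 15 complex V genes were called lower, Atp5a1 at -0.22, where 34.4% of all genes were called lower.

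Atp5s and Atp5sl, which match the naming rule but are not counted as subunits, rose on the deposited scale. Atp5s, a coupling factor, was at 8.17 and 6.73 TPM in Tet2 KO and 5.12 and 5.58 TPM in WT (0.41, SE 0.103, adjusted p = 0.00201). Atp5sl, known from human cells for its part in complex I assembly, was at 23.58 and 25.97 TPM in Tet2 KO and 20.82 and 19.12 TPM in WT (0.30, SE 0.0706, adjusted p = 0.00124). Neither was called with median-ratio scaling. Among the 78 tested subunits alone, 56 fell and 6 rose.

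Transcript length moved with these differences. The tested subunit genes had a median transcript length of 737 bases, against 2590 bases over all genes tested, and longer transcripts tended to have higher fold changes across the table. Across the 80 genes the rank correlation of length and log2 fold change was 0.41 (Pearson r = 0.24), and across 11363 genes 0.29 (Pearson r = 0.24). These are correlations across genes within the same libraries, and genes are not replicates. Under 600 bases, the median log2 fold change was -0.59 for 27 subunit genes and -0.12 for all 271 genes of that length. From 600 to 1000 bases it was -0.41 for 26 subunit genes and 0.01 for all 847 genes, and from 1000 to 2000 bases -0.10 for 21 subunit genes and 0.10 for all 2892 genes. From 2000 to 4000 bases the 6 subunit genes had a median of -0.10, against 0.24 for all 4715 genes. In every band with subunit genes, their median was below that of all genes. After median-ratio scaling with a correction for length and GC content, 61 of the 80 genes fell and 8 rose, against 35.3% lower and 34.0% higher among all genes, and their median was -0.30.

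**Figure D4:**
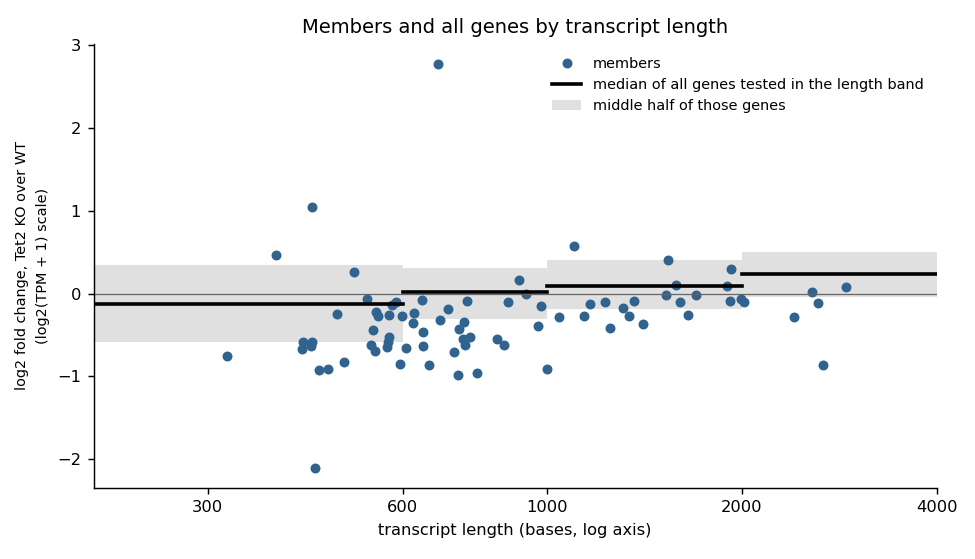
Log2 fold change of each tested oxidative phosphorylation gene, Tet2 KO over WT, against transcript length in bases on a log axis, with the median (black line) and the middle 50% (grey) of all genes tested in each length band. Most points lie below the black line of their band, which runs from -0.12 under 600 bases to 0.24 from 2000 to 4000 bases.

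Assembly factors, which help to build the complexes without staying in them, split evenly on the deposited scale. Of 57 listed genes 55 were in the table and tested: 15 fell, 15 rose, against 19.5% lower and 54.4% higher among all genes, and the median log2 fold change was -0.01. The median of the 78 subunits was lower by 0.27. With median-ratio scaling, 33 assembly factors fell and 6 rose, with a median of -0.25, where 71 subunits fell and 3 rose and 34.4% of all genes were called lower and 33.3% higher. After the length and GC correction the counts were 24 lower and 11 higher, with a median of -0.11, against 35.3% lower and 34.0% higher among all genes. The median transcript length of the assembly factors was 1487 bases. By complex, 5 of 16 complex I factors fell and 2 rose, 2 of 4 complex II factors fell and 0 rose, 1 of 6 complex III factors fell and 3 rose, 7 of 24 complex IV factors fell and 8 rose, and 0 of 5 complex V factors fell and 2 rose.

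Uqcc2, needed to make cytochrome b of complex III, fell most among them, at 87.92 and 79.54 TPM in Tet2 KO and 136.53 and 145.6 TPM in WT (-0.75, SE 0.0554, adjusted p = 9.48e-09). Cmc2, a complex IV factor, was at 8.21 and 8.19 TPM in Tet2 KO and 14.23 and 13.05 TPM in WT (-0.67, adjusted p = 1.66e-06). The complex I factors Ndufaf8 and Ndufaf3 followed: Ndufaf8 was at 15.74 and 15.34 TPM in Tet2 KO and 25.32 and 20.64 TPM in WT (-0.53, adjusted p = 0.000112), and Ndufaf3 at 12.57 and 10.71 TPM in Tet2 KO and 17.24 and 16.64 TPM in WT (-0.51, adjusted p = 3.56e-05). All 4 were lower in both Tet2 KO libraries than in either WT library, as were 24.4% of all genes tested. They fell with median-ratio scaling too.

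In the other direction, Atpaf1, a chaperone for the F1 beta subunit, was at 20.43 and 21.77 TPM in Tet2 KO and 11.46 and 10.86 TPM in WT (0.86, SE 0.0732, adjusted p = 2.26e-08). Oxa1l, which inserts mitochondrially made proteins into the inner membrane, was at 52.12 and 52.09 TPM in Tet2 KO and 33.08 and 34.73 TPM in WT (0.61, SE 0.0567, adjusted p = 7.25e-08). Tmem186, a complex I factor, was at 12.42 and 13.28 TPM in Tet2 KO and 8.31 and 7.88 TPM in WT (0.61, adjusted p = 5.46e-06). Ttc19, a complex III factor, was at 16.32 and 15.74 TPM in Tet2 KO and 10.41 and 10.44 TPM in WT (0.58, adjusted p = 3.45e-06). These 4 remained called higher with median-ratio scaling. On the deposited scale they lay higher in both Tet2 KO libraries than in either WT library, as did 62.4% of all genes tested. Uqcc2 and Ttc19 thus moved in opposite directions within complex III assembly, and Atpaf1 opposite to most complex V subunits.

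**Figure D5:**
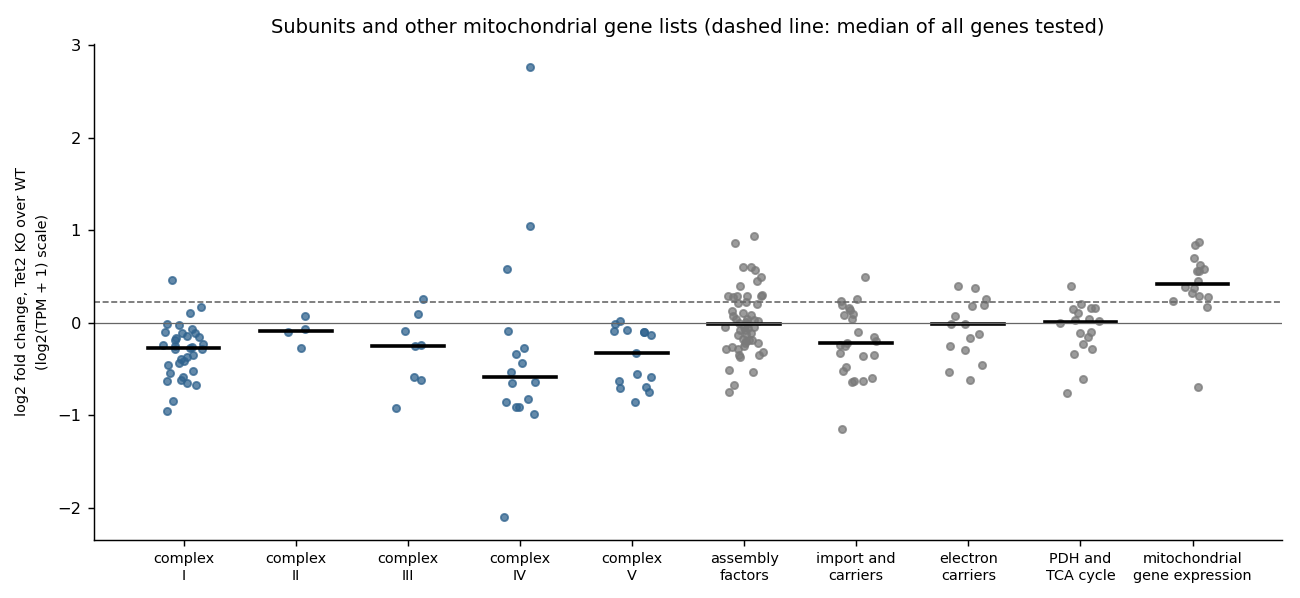
Log2 fold change of each tested gene, Tet2 KO over WT, on the log2(TPM + 1) scale, in complexes I to V, the assembly factors and 4 other mitochondrial gene lists, with list medians as black lines and the median of all genes tested dashed. The complexes have medians from -0.58 to -0.08, the assembly factors -0.01 and the genes of mitochondrial gene expression 0.42, the only list here with its median above that of all genes on the deposited scale.

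Nuclear subunits whose symbols the rule does not match moved with the others. Of 7 listed symbols, some of them other names of 1 gene, 4 were in the table. All 4 fell, with a median of -0.55 on the deposited scale, where 19.5% of all genes were called lower. They also fell with median-ratio scaling, where 34.4% of all genes did. Usmg5, subunit k of ATP synthase, was at 309.85 and 307.67 TPM in Tet2 KO and 546.66 and 520.74 TPM in WT (-0.79, adjusted p = 2.46e-11). 2010107E04Rik, another small ATP synthase subunit, was at 280.34 and 296.25 TPM in Tet2 KO and 464.37 and 456.68 TPM in WT (-0.67, adjusted p = 2.6e-10). Cyc1, cytochrome c1 of complex III, was at 103.87 and 108.97 TPM in Tet2 KO and 144.45 and 142.44 TPM in WT (-0.43, adjusted p = 4.45e-07). The libraries of the groups did not overlap for these 3 genes, all lower in Tet2 KO, as for 24.4% of all genes tested.

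Of the genes for mitochondrial gene expression and its regulators, 15 of 16 tested rose and 1 fell on the deposited scale, with a median log2 fold change of 0.42, where 54.4% of all genes were called higher. With median-ratio scaling 9 rose and 1 fell, where 33.3% of all genes were called higher. The median transcript length of these genes was 3087.5 bases, and after the length and GC correction 7 rose and 1 fell, with a median of 0.10, where 34.0% of all genes were called higher. Gabpa and its partners form the ETS-type factor GABP (NRF-2), which is known to bind promoters of respiratory genes. Gabpa was at 35.22 and 30.71 TPM in Tet2 KO and 20.03 and 19.64 TPM in WT (0.70, adjusted p = 1.75e-07). Gabpb1 was at 40.97 and 40.36 TPM in Tet2 KO and 21.74 and 22.8 TPM in WT (0.84, adjusted p = 2.74e-09), and Gabpb2 at 33.79 and 33.89 TPM in Tet2 KO and 17.42 and 18.77 TPM in WT (0.87, adjusted p = 4.07e-09). All 3 were higher in both Tet2 KO libraries than in either WT library, as were 62.4% of all genes tested. The list's 1 fall was Slirp, which with Lrpprc stabilises mitochondrial mRNAs, at 114.44 and 110.64 TPM in Tet2 KO and 187.44 and 177.08 TPM in WT (-0.69, adjusted p = 1.44e-09).

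A further 3 regulators were picked after their values were seen, because their motifs are searched for below or because they act on mitochondrial DNA. Nrf1, a factor known to bind respiratory gene promoters, was at 22.07 and 21.91 TPM in Tet2 KO and 13.51 and 14.29 TPM in WT (0.63, adjusted p = 4.96e-07). Yy1, a general factor with sites in such promoters, was at 116.78 and 105.51 TPM in Tet2 KO and 73.78 and 76.52 TPM in WT (0.56, adjusted p = 1.57e-07). Tfam, which packs mitochondrial DNA and starts its transcription, was at 19.5 and 18.32 TPM in Tet2 KO and 11.95 and 12.99 TPM in WT (0.56, adjusted p = 4.14e-06). All 3 stayed called higher with median-ratio scaling. The coactivator gene Ppargc1a was at 0.01 TPM or less in every library and was not tested.

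The promoters of the subunit genes were searched for the letters of 3 such motifs. In the RefSeq table for GRCm38.p6, 69 of the 84 genes had a promoter, 250 bases before to 50 bases after the gene's start. This start is that of RefSeq and can differ from the GENCODE position of the gene, so a window can lie partly or wholly within the GENCODE gene. GCATGCGC, the NRF1 motif, was found on either strand in 10 of these 69 (14.5%), against 2.80% of all 27025 promoters and 5.75% of the 8905 promoters of tested genes. CCGGAAG, the ETS motif bound by GABP, was found in 15 (21.7%), against 9.12% of all promoters and 19.7% of those of tested genes. AAGATGGC, the YY1 motif, was found in 10 (14.5%), against 2.88% and 5.18%, and in 9 of the 10 it lay after the start. The motifs may overlap in a promoter, and a match is a description of letters, not of binding. The median log2 fold change was -0.28 for the 30 tested genes with any of the 3 motifs and -0.34 for the 37 without, with 25 lower in each. Among all genes tested, 19.5% were called lower.

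The 120 bases before the start are shown for 6 genes that hold a motif there, at least 1 from each complex, both falling genes and Ndufa6, which rose. They are given 5′ to 3′ on the strand of the gene, and capitals mark the matches, GCATGCGC for NRF1 and CCGGAAG or its reverse complement CTTCCGG for ETS. The windows, on GRCm38.p6, are chr2:36049339-36049458 (minus strand) for Ndufa8, chr15:82354292-82354411 (minus) for Ndufa6, chr4:140961151-140961270 (plus) for Sdhb, chr10:80406822-80406941 (minus) for Uqcr11, chr7:30626115-30626234 (minus) for Cox6b1 and chr5:108434400-108434519 (minus) for Atp5k, whose capitals hold 2 overlapping NRF1 matches on opposite strands.
Ndufa8: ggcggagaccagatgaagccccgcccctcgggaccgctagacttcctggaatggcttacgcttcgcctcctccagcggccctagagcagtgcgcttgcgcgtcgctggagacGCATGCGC
Ndufa6: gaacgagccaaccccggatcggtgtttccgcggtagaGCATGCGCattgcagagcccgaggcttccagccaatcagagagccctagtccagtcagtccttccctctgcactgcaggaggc
Sdhb: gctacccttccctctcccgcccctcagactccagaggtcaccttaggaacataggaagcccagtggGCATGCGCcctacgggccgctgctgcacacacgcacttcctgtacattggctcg
Uqcr11: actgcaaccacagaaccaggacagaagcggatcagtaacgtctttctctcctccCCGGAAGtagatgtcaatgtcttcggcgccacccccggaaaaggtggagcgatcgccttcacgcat
Cox6b1: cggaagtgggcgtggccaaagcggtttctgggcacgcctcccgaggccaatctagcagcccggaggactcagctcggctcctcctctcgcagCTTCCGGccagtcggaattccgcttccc
Atp5k: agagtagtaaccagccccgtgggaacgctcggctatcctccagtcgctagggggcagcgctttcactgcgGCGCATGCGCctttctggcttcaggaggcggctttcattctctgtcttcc

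The same NRF1 letters stand before the start of Ndufa6, which rose, and of Ndufa8, which was at 97.64 and 94.13 TPM in Tet2 KO and 152.49 and 142.57 TPM in WT (-0.62, SE 0.0492, adjusted p = 1.08e-08). Of the 10 tested genes with the NRF1 motif 9 were called lower, and of the 57 without it 41 were, where 19.5% of all genes tested were. The median log2 fold change was -0.40 with the motif and -0.32 without it, and this difference was not tested. Cox7a2l, Ndufc1 and Cox7a2 held none of the 3 motifs in the 120 bases before their RefSeq start. For Cox7a2l these bases (chr17:83514334-83514453, minus) lie within the GENCODE gene, and the bases before the GENCODE start were not searched. In the whole promoter searched above, Ndufc1 held a YY1 match, and Cox7a2l and Cox7a2 held no match.

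Of the routes that feed or connect the complexes, the electron carriers and ubiquinone synthesis genes had 5 of 15 lower and 5 higher. Among all genes 19.5% were lower and 54.4% higher. The median of the list was -0.02, against 0.23 for all genes. With median-ratio scaling 8 were lower and 1 higher, against 34.4% and 33.3% of all genes. Cycs, cytochrome c, was at 43.36 and 33.49 TPM in Tet2 KO and 57.2 and 60.59 TPM in WT (-0.61, SE 0.131, adjusted p = 0.0108). Coq4 and Coq7, both of ubiquinone synthesis, fell: Coq4 was at 5.38 and 5.74 TPM in Tet2 KO and 8.76 and 8.2 TPM in WT (-0.53), and Coq7 at 9.79 and 10.56 TPM in Tet2 KO and 14.67 and 14.0 TPM in WT (-0.46). Coq9, of the same pathway, rose, at 30.19 and 33.6 TPM in Tet2 KO and 23.82 and 24.06 TPM in WT (0.40, adjusted p = 4.37e-05). Coq10a (0.38) and Coq2 (0.26) rose on the deposited scale and were not called with median-ratio scaling.

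Of the pyruvate dehydrogenase and TCA cycle genes, 7 of 18 were lower and 6 higher on the deposited scale, against 19.5% and 54.4% of all genes. Their median was 0.01, against 0.23 for all genes. With median-ratio scaling 13 were lower and 1 higher, against 34.4% and 33.3% of all genes. Idh3a, the catalytic subunit of the NAD-dependent isocitrate dehydrogenase, was at 44.31 and 40.3 TPM in Tet2 KO and 73.86 and 70.07 TPM in WT (-0.75, adjusted p = 9.25e-09). Mdh2, mitochondrial malate dehydrogenase, was at 309.66 and 326.57 TPM in Tet2 KO and 478.66 and 487.39 TPM in WT (-0.60, adjusted p = 9.04e-10). Suclg1 of succinyl-CoA ligase fell by less (-0.33). Pdha1, of pyruvate dehydrogenase, rose, at 127.35 and 122.17 TPM in Tet2 KO and 91.43 and 97.03 TPM in WT (0.40, adjusted p = 1.89e-06). Idh2 (0.20) and Idh3g (0.16) were called higher on the deposited scale and stood at -0.04 and -0.08 with median-ratio scaling.

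Of 25 mitochondrial import and carrier genes 16 fell and 6 rose, against 19.5% lower and 54.4% higher among all genes, with a median of -0.21. With median-ratio scaling 18 fell and 1 rose, against 34.4% and 33.3% of all genes. Ucp2, a carrier of the inner membrane, was at 480.8 and 518.25 TPM in Tet2 KO and 1116.74 and 1104.39 TPM in WT (-1.15, SE 0.0387, adjusted p = 3.04e-13). The small import subunits Tomm7 and Tomm6 fell by -0.64 and -0.63 as log2 fold changes, and the import receptor Tomm20 rose, at 98.51 and 90.78 TPM in Tet2 KO and 66.9 and 66.24 TPM in WT (0.50, adjusted p = 3.52e-07). Tomm70a (0.25) and Vdac3 (0.24) rose on the deposited scale only, as they stood at 0.01 and -0.01 with median-ratio scaling.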

How the data were processed

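Extraction used QIAzol and library preparation a KAPA stranded mRNA kit, per the labels' protocols. The submitters' processing notes name STAR, RSEM and mm10. Versions, the annotation and the strand setting of the quantification were not given in the sources used here. Values were deposited by the authors as TPM, with 2 decimals and 24589 rows, 92 of them ERCC spike-ins, which were left out of the tests, and 27 with date-like names, kept as genes. TPM keep no depth, so no count test, interval or floor was possible, and a fixed total lets abundant transcripts move all other values. Replicates differed by a median absolute log2 difference of 0.0694 in Tet2 KO and 0.0488 in WT, over 7943 genes.

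The 2 Tet2 KO and 2 WT libraries were compared with limma 3.58.1 (R 4.3.3, statmod 1.5.0) on log2(TPM + 1), with trend and robust estimation, keeping genes that reached 1 TPM in 2 or more libraries, with Benjamini-Hochberg adjustment over all 11452 genes tested. The pseudocount of 1 understates the change of low genes. The procedure was tested on simulated data. The closing section gives the effect of 16 alternatives: pseudocounts of 0.1 and 5, other filters, scalings and limma settings, a replicate block, and each library left out. Positions, lengths and coding sequences came from GENCODE M21 (mm10), copies from BLAST 2.17.0, promoters from RefSeq, and figures from matplotlib 3.10.9 in Python 3.11.15.

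The subunit genes and all gene lists were chosen with earlier results of these data known. Named genes were, per complex, up to 3 called genes with the largest change in each direction and the highest-level gene, all isoform sets and Sdh genes, up to 4 assembly factors per direction, and up to 3 genes per direction of each other list. Other genes were named after their values were seen. A gene of complex I is included in all counts and medians but is not reported here by name.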

Additional observations from a re-analysis of the deposited data

How the results depend on the processing

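The median log2 fold change of each of the 5 complexes stayed below 0 under all 16 alternatives. The count of subunit genes called lower lay between 47 (limma without trend) and 72 (spike-in scaling), and between 47 and 54 with a library left out. The count called higher was 3 with median-ratio and 3 with spike-in scaling, and 7 to 9 with a library left out. With median-ratio scaling the medians were -0.52 for complex I, -0.33 for II, -0.49 for III, -0.83 for IV, -0.57 for V and -0.25 for the assembly factors, and with spike-in scaling -0.57, -0.38, -0.54, -0.88, -0.62 and -0.30. With quantile normalization they were -0.41 for complex I, -0.13 for II, -0.48 for IV and -0.27 for the assembly factors, and with the length and GC correction -0.33 for complex I, -0.21 for II, -0.27 for III and -0.11 for the assembly factors. The median of complex IV was -0.50 with a pseudocount of 5, -0.53 with no filter and -0.53 with a filter of 5 TPM. The median log2 fold change of assembly factors was -0.040 with a filter of 5 TPM and turned to 0.0048 without spike-in rows. The subunits' median minus that of the assembly factors was -0.24 with a filter of 5 TPM, -0.093 with quantile normalization and -0.22 with the length and GC correction.

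With a library left out, the medians ranged from -0.32 to -0.24 for complex I, -0.62 to -0.55 for IV and -0.039 to -0.0028 for the assembly factors, and the subunit minus assembly difference from -0.32 to -0.26. The log2 ratios of summed TPM ranged from -0.10 to -0.085 for complex II, -0.43 to -0.42 for IV and -0.36 to -0.33 for V. These ratios were, with median-ratio scaling, -0.54 for complex I, -0.34 for II, -0.64 for III, -0.67 for IV and -0.59 for V; with spike-in scaling -0.59, -0.39, -0.69, -0.72 and -0.64; and without spike-in rows -0.28 for I, -0.078 for II, -0.38 for III and -0.41 for IV.

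Single genes that passed the test on either side changed sign as follows. With median-ratio scaling, Atp5a1 was at -0.22, Idh2 at -0.043, Idh3g at -0.080, Ndufb11 at -0.078, Sdha at -0.17, Tet2 at -0.22, Uqcrc2 at -0.15 and Vdac3 at -0.0082. With spike-in scaling, Atp5a1 was at -0.27, Coq2 at -0.027, Idh2 at -0.093, Idh3g at -0.13, Ndufb11 at -0.13, Sdha at -0.22, Tet2 at -0.27, Tomm70a at -0.038, Uqcrc2 at -0.20, Uqcrq at -0.028 and Vdac3 at -0.058. With quantile normalization, Atp5b was at 0.16, Cox4i1 at 0.17 and Tet2 at -0.25. With the length and GC correction, Atp5a1 was at -0.18, Sdha at -0.19, Tet2 at -0.52 and Tomm70a at -0.26. Uqcrc2 stood at -0.099 with that correction, and it, Atp5a1, Atp5d, Atp5h, Ndufa7, Ndufs5 and Tet2 changed sign under at least 1 alternative without passing the test on either side. The cause of these changes was not tested.

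The replicate numbers of the titles are shared between groups, but the deviations of same-numbered libraries from their group means did not move together (r = -0.07 over 7943 genes), so the numbers were not taken as pairs. With the number as a replicate block, 52 subunit genes were called lower and 7 higher, 6 of 80 lost their call and 1 gained one, and the median of complex IV was -0.58. TPM hide the depth, so it cannot be said how much of the spread of low genes comes from counting.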

Other observations

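Pet117, a complex IV assembly factor that was picked out after its values were seen, was at 1.47 and 6.99 TPM in the Tet2 KO libraries and at 1.96 and 0.82 TPM in the WT libraries. The Tet2 KO libraries lay far apart, the groups overlapped, and the gene did not pass the test (log2 fold change 0.94, SE 0.887, adjusted p = 0.44 by limma). Sdhaf3, a complex II assembly factor, also spread more within groups than between them, at 10.15 and 6.75 TPM in Tet2 KO and 10.3 and 7.99 TPM in WT (-0.12, SE 0.235, adjusted p = 0.684).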
